A study of Mus musculus with 6 samples.

Results

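The genes of the acid-sensing ion channels and of the epithelial sodium channel (ENaC) were examined in p53 null mammary epithelial cells (MECs) from mice with or without past tamoxifen exposure. The family counts 8 genes, Asic1 to Asic5 and Scnn1a, Scnn1b and Scnn1g, and 7 of them are among the 17418 genes with a probeset of their own on the array, while the probeset of Asic2 is shared with 1 other gene. It was chosen by the intensity of Asic2, which was already known to be higher in the tamoxifen pools, and the other 7 genes were taken because they belong to the same channel family. The values of Asic2 are therefore given as a description with no test.

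The MECs grew from p53 null mammary duct fragments of Balb/c donors, 8 weeks old, in the cleared inguinal fat pads of p53 wild-type Balb/c hosts, cleared at 3 weeks of age. Hosts received a sham pellet (control) or tamoxifen, which modulates estrogen receptors, from a 5 mg pellet for 13 weeks, and glands were collected 4 weeks after the pellet was withdrawn. All hosts, control mice included, were given E2 (estradiol, 100 ug) and collected 8 h later, so that every pool is p53 null and E2 treated. The labels give a host age of 8 weeks at implantation and 3 to 5 mice per pool, while the methods give 16 weeks and the design text 5 mice. Cells were released by collagenase from whole glands after removal of the lymph nodes, and any host cell in a pool is wild-type for p53. Each group holds 3 pools with 1 array each, and a p-value measures the spread between pools, not between mice.

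The values deposited are linear intensities of 22369 probesets on each array. Mean intensities of the 6 arrays lay between 395.1 and 403.4, and arrays correlated at 0.9831 to 0.9943 on the log2 scale. The lower quartile of intensity was 37.5 in tamoxifen pool 2 and between 41.5 and 44.6 in the other arrays, so its dim probesets read low. Epithelial markers were bright in each pool, with Epcam between 5754 and 6586 and Krt18 between 9843 and 10760. Markers of other cells were bright as well, with Dcn of fibroblasts between 10850 and 12310 and Cdh5 of endothelium between 4987 and 6075. These values therefore do not give the purity of the pools. Array intensity does not give transcripts per cell, and fewer cells of a type cannot be told apart from less RNA per cell. Group differences are given per probeset, per ratio of a pair of probesets within an array or per sum of marker probesets, and the level of one probeset is not ranked against another.

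Acid-sensing channels and ENaC belong to one family of amiloride-sensitive sodium channels, each built as a trimer. Acid-sensing channels open when the fluid outside the cell turns acid and are best known in neurons, where Asic1, Asic2 and Asic3 subunits assemble with themselves or each other. ENaC, made of an alpha (Scnn1a), a beta (Scnn1b) and a gamma (Scnn1g) subunit, carries sodium into epithelial cells of kidney, lung, colon and glandular ducts, and the alpha subunit is needed for channel activity. ENaC currents are also known from cultured mouse mammary epithelial cells. Proteases open ENaC by cutting its alpha and gamma subunits, the ubiquitin ligase Nedd4l removes it from the membrane, and aldosterone raises its activity through Sgk1.

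The 250 bases before the start of Asic2 and of Scnn1g are shown because these genes had the widest differences of the family. The sequences are those of RefSeq, assembly GRCm38.p6, printed 5′ to 3′ on the strand of the gene, with motif matches in capitals. Asic2 has a pair of annotated starts on the minus strand of chromosome 11, and the array values do not tell which start was used.
Asic2, chr11:81968397-81968646, minus strand: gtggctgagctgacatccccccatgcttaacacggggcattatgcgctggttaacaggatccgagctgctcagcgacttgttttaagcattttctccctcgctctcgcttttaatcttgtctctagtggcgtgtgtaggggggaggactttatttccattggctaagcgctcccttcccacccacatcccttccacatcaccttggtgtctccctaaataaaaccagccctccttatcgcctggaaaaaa
Asic2, chr11:81152904-81153153, minus strand: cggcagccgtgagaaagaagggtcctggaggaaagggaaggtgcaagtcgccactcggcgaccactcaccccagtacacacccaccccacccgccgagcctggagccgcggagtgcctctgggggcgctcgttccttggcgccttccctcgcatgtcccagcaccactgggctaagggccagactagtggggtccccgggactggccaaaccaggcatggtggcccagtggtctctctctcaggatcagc
Scnn1g, chr7:121734229-121734478, plus strand: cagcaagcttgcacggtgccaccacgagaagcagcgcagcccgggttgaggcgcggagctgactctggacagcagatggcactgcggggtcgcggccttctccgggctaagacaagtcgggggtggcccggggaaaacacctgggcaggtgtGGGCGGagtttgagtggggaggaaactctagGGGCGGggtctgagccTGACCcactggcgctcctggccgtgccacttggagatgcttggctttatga
Both strands were searched for the estrogen response element GGTCANNNTGACC, its single arm GGTCA, the SP1 box GGGCGG and the TATA box TATAAA, of which the arm also lies inside the full element. None of these letters occurred in either Asic2 window. The Scnn1g window held 1 arm, read on the other strand as TGACC at position -51 from the start, and 2 SP1 boxes at -98 and -67. Among 32851 windows of the same length, 0.0639% held the full element, 35.2% the arm, 32.7% the SP1 box and 12.4% the TATA box. GC content was 51.2% and 66.4% in the Asic2 windows and 65.2% in the Scnn1g window, with 9, 14 and 16 CpG dinucleotides, against medians of 52.4% and 6 over all windows. RefSeq windows were also found for Asic1, Asic3, Asic5 and Scnn1b. A match is a description of letters and not a measured binding site.

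Asic2, a subunit that shapes the acid sensitivity of the channels it joins, had intensities of 39.3, 41.3 and 44.3 in control pools 1 to 3 and of 443, 367 and 492 in tamoxifen pools 1 to 3. All tamoxifen pools lay above all control pools, and the lowest tamoxifen pool was 8.28-fold above the highest control pool. The group means were 41.6 ± 2.53 and 434 ± 62.7 (SD, n = 3 each), a log2 difference of 3.37 or 10.4-fold, the rank 4 of 22369 probesets by log2 difference. Control intensities of Asic2 lay near the lower quartile of the arrays, so its baseline is dim and the size of the difference depends on the background of the array. The probeset of Asic2 is also annotated to 1700071K01Rik, a gene that lies within the span of Asic2, and the array cannot tell their signals apart. The study also measured Asic2, under the name Accn1, by qPCR in p53 null MECs. It reported higher mRNA that lasted to a later time after withdrawal.

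**Figure D1:**
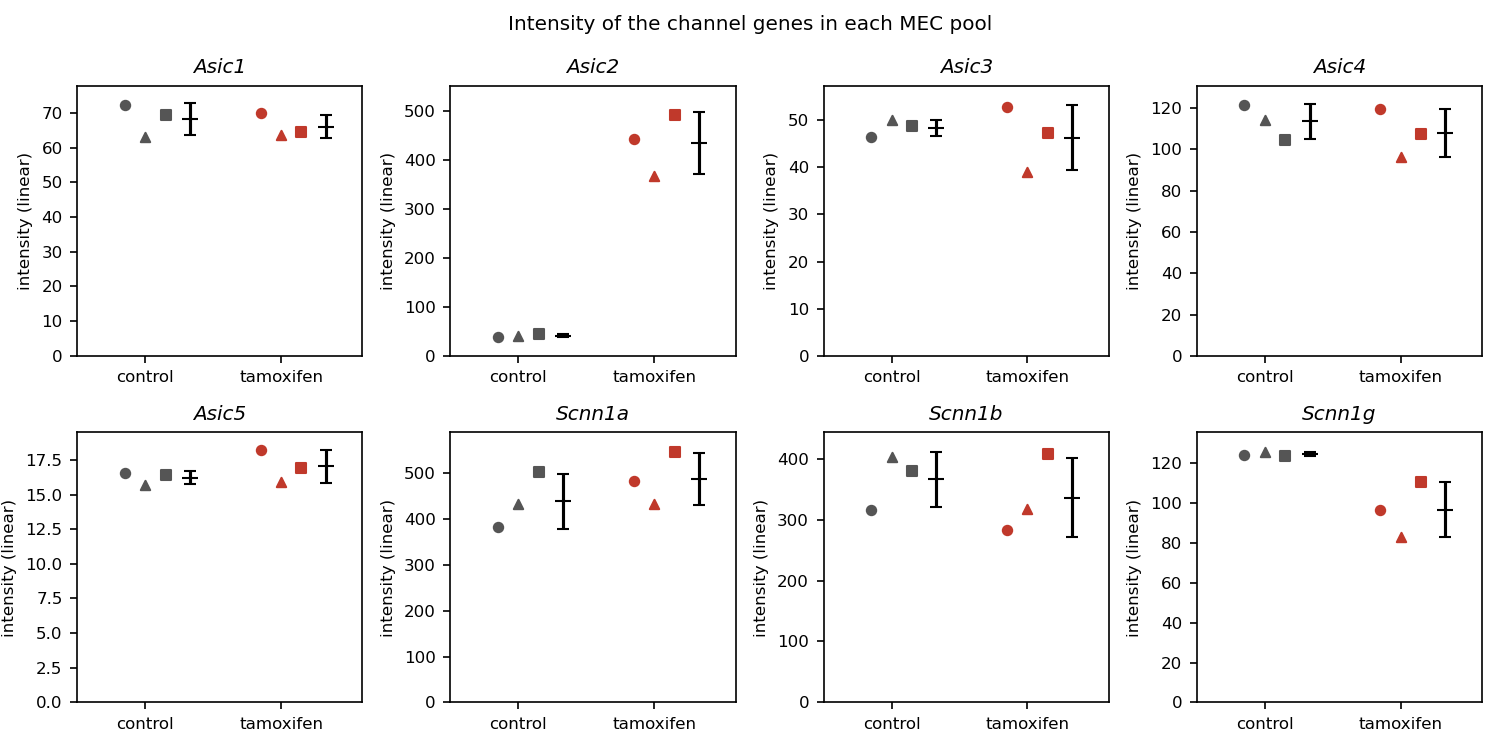
Linear intensity of the 8 channel genes in each MEC pool, control in grey and tamoxifen in red, with circles, triangles and squares for pools 1, 2 and 3 and the bar showing mean ± SD (n = 3). Asic2 separates the groups by 10.4-fold, Scnn1g of the tamoxifen pools lies below the control pools, and the groups overlap for the other 6 genes.

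None of the 7 other channel genes passed an adjusted p of 0.05 with limma, where 0.389% of all probesets passed (0.282% higher and 0.107% lower with tamoxifen). Their adjusted p ranged from 0.283 to 0.887 and their log2 differences from -0.37 to 0.15, with a median of -0.07 against -0.02 over all probesets. At an unadjusted p under 0.05, 1 of the 7 was called, Scnn1g, where 12.4% of all probesets were called (6.55% higher and 5.87% lower). Groups did not overlap for 1 of the 7, again Scnn1g, where 21.0% of all probesets did not overlap. A count of 1 in 7 is too small to be set apart from either share.

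The other acid-sensing channels had close values in both groups. Asic1, the main acid sensor of central neurons, had intensities of 72.1, 63.1 and 69.4 in control pools and 70.0, 63.8 and 64.5 in tamoxifen pools. Its log2 difference was -0.04 ± 0.08 (SE), with an adjusted p of 0.887 from limma. Asic3, known from sensory neurons, gave 46.5, 49.9 and 48.6 against 52.7, 38.9 and 47.2. The tamoxifen pools held both the highest and the lowest value of Asic3, and the log2 difference of -0.07 ± 0.12 (SE) had an adjusted p of 0.869 by limma. Asic4, which does not form an acid-gated channel by itself, gave 121.5, 114 and 105 against 119, 96.4 and 108, with overlapping groups and a log2 difference of -0.08 ± 0.11 (SE, limma adjusted p 0.838). Asic5, a bile acid-sensitive channel, was dim, with 16.6, 15.7 and 16.4 against 18.2, 15.9 and 16.9. Its log2 difference was 0.07 ± 0.08 (SE, limma adjusted p 0.793). The 95% intervals of these 4 genes together spanned folds of 0.777 to 1.19. Asic3 lay near and Asic5 below the lower quartile of the arrays, so their folds depend on the background of the array.

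Tamoxifen pool 2 was the lowest tamoxifen pool for 7 of the 8 channel genes, all but Scnn1b, and for 51.2% of all probesets. After quantile normalization it was the lowest for 5 of the 8 and for 41.2% of all probesets. Without this pool the log2 difference of Asic3 became 0.047 and that of Asic4 0.0015, so neither direction holds over the arrays.

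**Figure D2:**
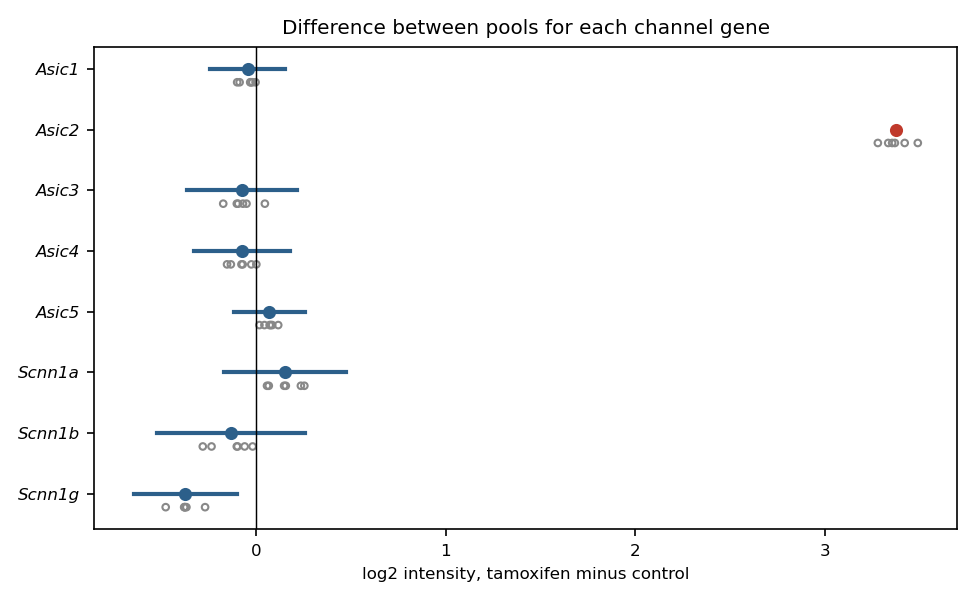
Log2 difference, tamoxifen minus control, of each channel gene, with 95% intervals from limma as lines and the differences with 1 array left out as open circles (3 pools per group). No interval is drawn for Asic2, whose difference of 3.37 chose the family, and the other points lie between -0.37 and 0.15.

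The 3 ENaC subunits had differences of unlike sign, none of them past the adjusted threshold. Scnn1a, the alpha subunit, had intensities of 382, 433 and 502 in control pools and 483, 433 and 547 in tamoxifen pools, a log2 difference of 0.15 ± 0.13 (SE, limma adjusted p 0.724). Scnn1b, the beta subunit, had 316, 402 and 380 against 284, 317 and 408, a log2 difference of -0.13 ± 0.16 (SE, limma adjusted p 0.810). With 1 array left out the difference was 0.06 (without control pool 1) to 0.25 (without control pool 3) for Scnn1a and -0.28 (without tamoxifen pool 3) to -0.02 (without tamoxifen pool 1) for Scnn1b. The groups overlapped for both genes, and their 95% intervals allow folds of 0.890 to 1.39 for Scnn1a and of 0.697 to 1.19 for Scnn1b.

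Scnn1g, the gamma subunit that proteases cut to open the channel, gave 124.4, 125.7 and 123.7 in control pools and 96.5, 83.2 and 110.9 in tamoxifen pools. Every tamoxifen pool was below every control pool, and the highest tamoxifen pool was at 0.897 of the lowest control pool. Group means were 125 ± 1.03 and 96.9 ± 13.9 (SD, n = 3 each), a coefficient of variation of 0.829% in control and 14.3% in tamoxifen pools. The log2 difference was -0.37 ± 0.11 (SE), a fold of 0.772 with a 95% interval of 0.639 to 0.932. By limma the unadjusted p was 0.0147 and the adjusted p 0.283, so the difference did not pass over all probesets. With 1 array left out the log2 difference was -0.48 (without tamoxifen pool 3) to -0.27 (without tamoxifen pool 2). With array weights it was -0.24. Its size thus depends on tamoxifen pool 2, whose dim probesets read low.

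Ratios of 2 subunits within an array were compared between groups, as a comparison added after the values had been seen. Over 3 pairs of subunits, the exact two-sided permutation test with 3 against 3 pools cannot go below p = 0.1. The log2 ratio of Scnn1g to Scnn1a was -1.62, -1.78 and -2.02 in control pools and -2.32, -2.38 and -2.30 in tamoxifen pools, a difference of -0.53 with no overlap (exact permutation p = 0.1, 0.15 after Benjamini-Hochberg over the 3 pairs). The log2 ratio of Scnn1b to Scnn1a was -0.28, -0.11 and -0.40 against -0.77, -0.45 and -0.42, a difference of -0.29 with no overlap (exact permutation p = 0.1, adjusted 0.15). For Scnn1g to Scnn1b the groups overlapped, with -1.34, -1.68 and -1.62 against -1.56, -1.93 and -1.88 and a difference of -0.24 (exact permutation p = 0.3, adjusted 0.3). Both ratios over Scnn1a were thus lower in every tamoxifen pool, but no ratio could pass the test in this design. They share Scnn1a and so are not independent of each other. The ratios compare groups and not the abundance of the subunits, since probes differ in brightness.

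**Figure D3:**
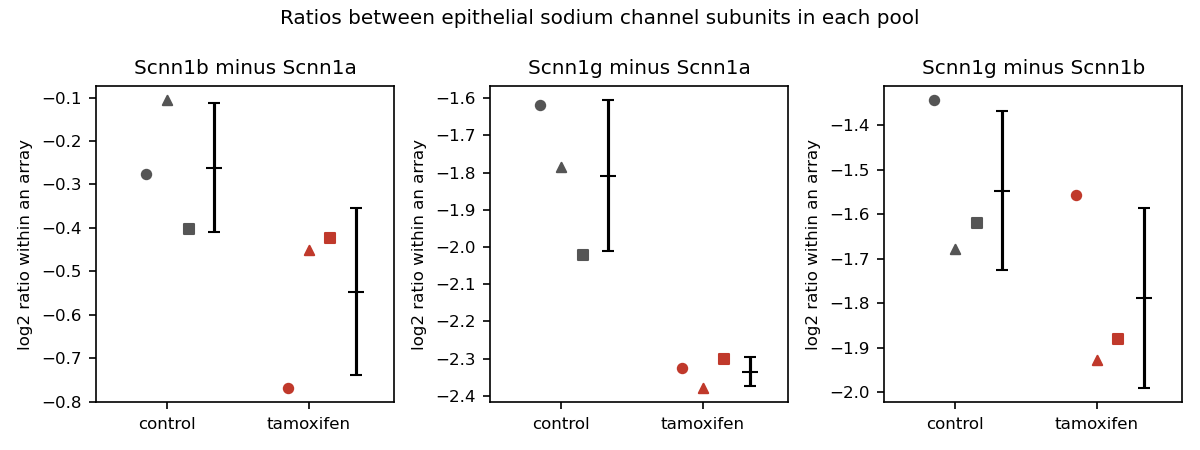
Log2 ratio of ENaC subunits within each array, control in grey and tamoxifen in red, with circles, triangles and squares for pools 1, 2 and 3 and bars for mean ± SD (n = 3). Scnn1g over Scnn1a lies at -2.02 or above in control pools and at -2.30 or below in tamoxifen pools, and the vertical axes do not start at 0.

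Genes that act on these channels were read from 10 lists, of which 101 of 117 genes had a probeset of their own. By limma 0 rose and 1 fell at an adjusted p of 0.05 (0.282% and 0.107% of all probesets), and at an unadjusted p of 0.05 the counts were 11 higher and 4 lower (6.55% and 5.87% of all probesets). The median log2 difference was 0.00, and 50 of the 101 were higher with tamoxifen.

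Tmprss13, a membrane-anchored serine protease that can activate ENaC, was the gene that fell, from 593, 591 and 604 in control pools to 361, 321 and 394 in tamoxifen pools. All tamoxifen pools lay below the control pools, and the log2 difference was -0.74 ± 0.09 (SE, limma adjusted p 0.0431). The adjusted p was above 0.05 whenever 1 array was left out, and it ranged from 0.0135 to 0.192 over all alternatives. The study had already listed Tmprss13 among its changed genes, so this call is not independent of it. The 10 measured ENaC-activating proteases had a list median of -0.15 against -0.02 over all probesets, and the other 9 did not pass. All 10 had a log2 difference below 0, but the share of all probesets below 0 was not counted. The median of all probesets lies below 0 as well, so the direction of the list has no baseline here. Tamoxifen pool 2 was the lowest tamoxifen pool for every protease of the list but Furin, and for 51.2% of all probesets. After quantile normalization this pool was the lowest for 41.2% of all probesets, and the proteases were not counted. Among the other 9, Tmprss4 had a log2 difference of -0.22 (limma adjusted p 0.513). Matriptase (St14) had -0.13 (adjusted p 0.552), prostasin (Prss8) -0.08 (adjusted p 0.796) and Furin -0.01 (adjusted p 0.962) in the same limma fit, these 3 being named after their values were seen.

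Protease inhibitors, ubiquitin and trafficking genes and the corticosteroid pathway held no gene past the adjusted threshold among 4, 12 and 9 measured. The inhibitor Serpinb2 had a log2 difference of 0.36 (limma adjusted p 0.266) and Spint1, an inhibitor of matriptase, 0.08 (adjusted p 0.728). Usp2, a deubiquitinating enzyme, gave 929, 945 and 1035 against 1150, 1147 and 1205, a log2 difference of 0.27 (limma adjusted p 0.240) with no overlap. Rab11b, of recycling endosomes, had 0.17 (adjusted p 0.402). Tsc22d3, a glucocorticoid-induced gene, had 0.23 (limma adjusted p 0.356), and Hsd11b2, which inactivates corticosterone, had -0.34 (adjusted p 0.458). The best known regulators, named after their values were seen, had log2 differences of -0.07 for Nedd4l (limma adjusted p 0.855), 0.05 for Sgk1 (adjusted p 0.823) and 0.21 for the mineralocorticoid receptor Nr3c2 (adjusted p 0.560).

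Basolateral sodium and potassium exit, by which sodium taken up through ENaC leaves the cell, had the highest list median, 0.15 over 12 measured genes. No gene of it passed the adjusted threshold, while an unadjusted p of 0.05 was reached by 5 genes with higher and 1 with lower values, and 7 did not overlap between groups, where 6.55%, 5.87% and 21.0% of all probesets did so. Fxyd2, a regulatory subunit of the sodium pump, gave 229, 329 and 416 in control pools and 693, 670 and 725 in tamoxifen pools, a log2 difference of 1.14 ± 0.21 (SE, limma adjusted p 0.115). Fxyd1, another pump regulator, gave 905, 993 and 1024 against 1408, 1251 and 1358, with 0.46 ± 0.08 (SE, limma adjusted p 0.113). The tamoxifen pools lay above the control pools for both pump regulators. Kcnn4, a calcium-activated potassium channel, had -0.34 (limma adjusted p 0.266).

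Proton export and carbonic anhydrases, which set the pH that acid-sensing channels read, held 3 genes higher and 1 lower at an unadjusted p of 0.05 among 13 measured (6.55% and 5.87% of all probesets) and none past the adjusted threshold. Car2, a cytosolic carbonic anhydrase, gave 678, 896 and 696 in control pools and 466, 505 and 403 in tamoxifen pools, without overlap and with a log2 difference of -0.72 ± 0.14 (SE, limma adjusted p 0.129). Slc16a3, a lactate and proton exporter, had 0.24 (limma adjusted p 0.299). Of 12 other proton sensors, Kcnk1, an acid-sensitive potassium channel, had -0.30 (limma adjusted p 0.274), and the proton channel Otop1 had 0.52 (adjusted p 0.436). Otop1 was dim, with 23.1, 34.1 and 18.1 in control and 34.3, 39.5 and 31.1 in tamoxifen pools, and its groups overlapped. These values lie near or below the lower quartile of the arrays, so the fold depends on the background of the array. ASIC binding proteins and ASIC peptide modulators held no gene at an unadjusted p of 0.05 among 13 and 7 measured, with list medians of -0.01 each. Stoml2 and Stoml3, of the stomatin family, had -0.18 (limma adjusted p 0.507) and -0.13 (adjusted p 0.641). Stoml3 lay below the lower quartile of the arrays. The peptide genes Penk and Npff had -0.17 (limma adjusted p 0.560) and 0.05 (adjusted p 0.904). Of 9 chloride channels and cotransporters, Slc5a1 had -0.22 (limma adjusted p 0.483) and Slc26a9 -0.26 (adjusted p 0.530).

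**Figure D4:**
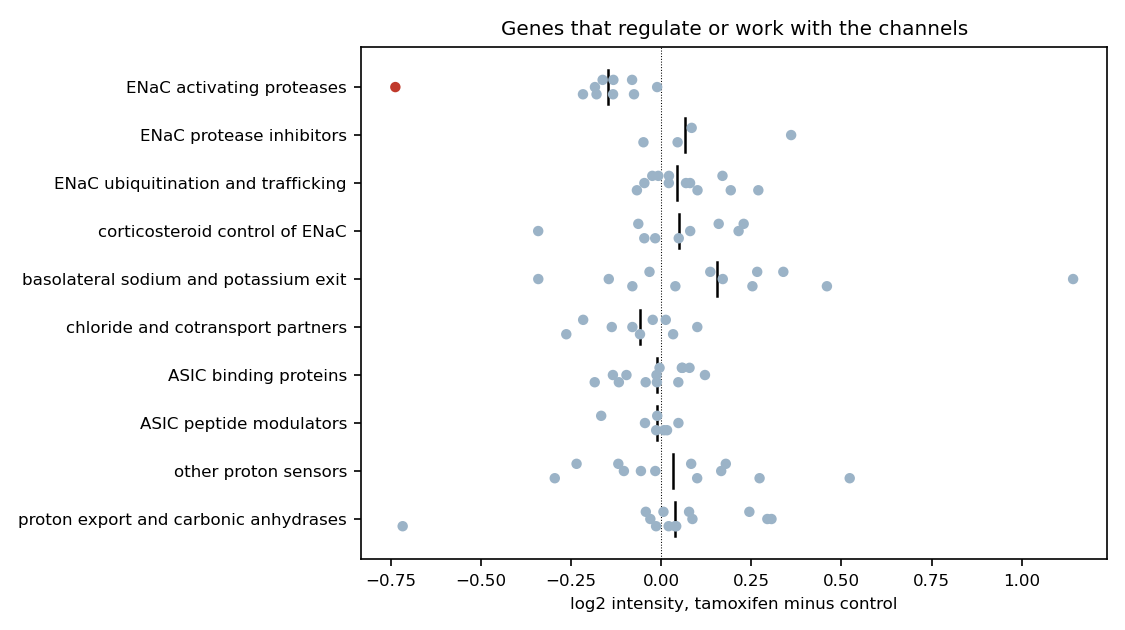
Log2 difference, tamoxifen minus control, of 101 measured genes in 10 lists of genes that act on ENaC or acid-sensing channels (3 pools per group), with each point a gene, black ticks list medians and red an adjusted p under 0.05 by limma. Tmprss13, at -0.74, is the red point, and Fxyd2 at 1.14 is the highest.

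The neighbours of Asic2 on chromosome 11 were read in the gene order of the RefSeq table, 10 measured genes on each side. None of the 20 passed an adjusted p of 0.05 by limma, with 4 higher and 1 lower at an unadjusted p of 0.05 (6.55% and 5.87% of all probesets) and a lowest adjusted p of 0.0979. Groups did not overlap for 6 of the 20, where 21.0% of all probesets did not. On the side of the distal start of Asic2 lies a cluster of chemokine genes, small proteins that attract leukocytes. Ccl2 gave 4181, 4413 and 5060 in control pools and 6772, 6642 and 6086 in tamoxifen pools, a log2 difference of 0.52 (limma adjusted p 0.116). Ccl7 gave 3861, 4507 and 4445 against 6006, 6492 and 5878, with 0.52 (adjusted p 0.0979 by limma). Ccl11, Ccl12 and Ccl8 had log2 differences of 0.28, 0.14 and 0.60, and in all 5 of these genes the tamoxifen pools lay above the control pools. Ccl2 and Ccl7 are among the genes that the study listed as changed on these samples. The next gene, Ccl1, overlapped between groups with 0.18, as did the 4 genes beyond it.

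On the other side Spaca3, the nearest gene, had a log2 difference of -0.10 (limma adjusted p 0.852), and Tmem98 gave 360, 250 and 221 against 185, 167 and 205, with -0.55 (adjusted p 0.334). The other 8 genes on that side overlapped between groups. 5530401A14Rik, a noncoding gene inside the span of Asic2, was dim, at 9.15 to 10.5 in control and 8.90 to 9.95 in tamoxifen pools, a log2 difference of -0.05 (limma adjusted p 0.883). Log2 differences of the 20 neighbours lay between -0.55 and 0.60.

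**Figure D5:**
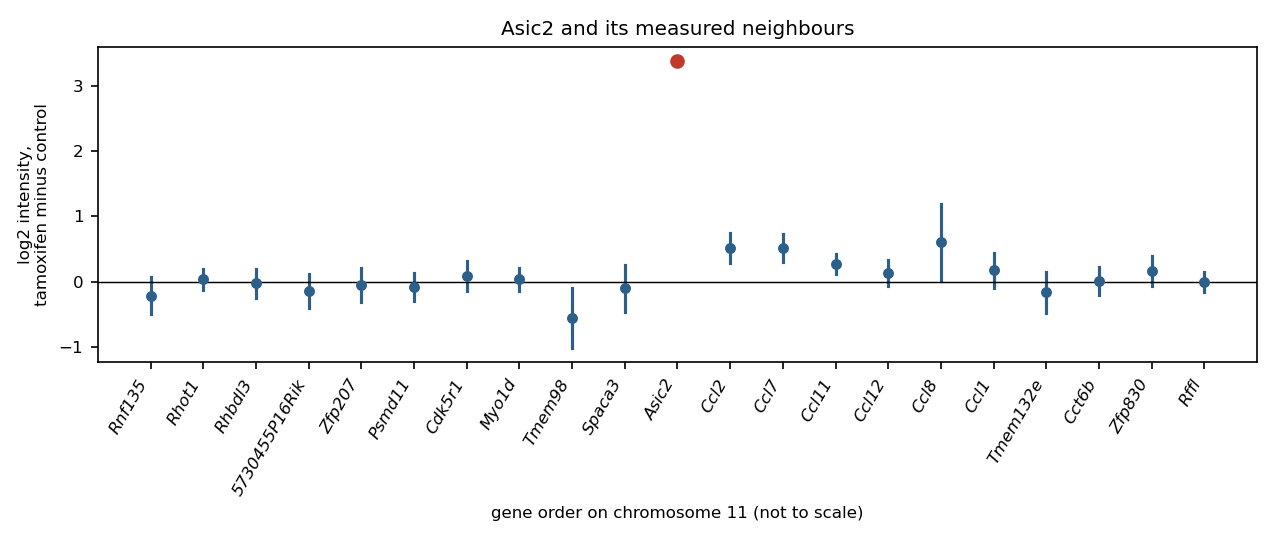
Log2 difference, tamoxifen minus control, of Asic2 and its 20 measured neighbours in their order along chromosome 11 (not to scale), with 95% intervals from limma as lines (3 pools per group) and none for Asic2. Asic2 lies at 3.37, and its neighbours lie between -0.55 and 0.60.

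The genes whose log2 intensity ran most like Asic2 over the 6 arrays were, by Pearson r among 17418 genes, Nme5 (0.9992), Mettl24 (0.9968), Ppp2r2c (0.9967), Runx1t1 (0.9966) and Qk (0.9963). These r values mostly describe the step between groups, since the arrays fall into 2 groups for Asic2, and they carry no test. Nme5, of the nucleoside diphosphate kinase family, gave 134.7, 134.8 and 137 in control pools and 263, 246 and 260.0 in tamoxifen pools. Ppp2r2c, which encodes a B subunit of the phosphatase PP2A, gave 80.2, 85.8 and 85.2 against 301, 322 and 367. Log2 differences were 0.92 for Nme5, 1.28 for Mettl24, 1.97 for Ppp2r2c, 0.32 for Runx1t1 and 0.15 for Qk, all below that of Asic2. The genes most like the ENaC subunits were Cdhr4 (0.9925) and Dnd1 (0.9858) for Scnn1a, Olfr985 (0.992) and Gosr1 (0.990) for Scnn1b, and Tom1l1 (0.9948) and Faap20 (0.9928) for Scnn1g.

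Markers of other cell types differed between the pools as well, and their part in the values of Asic2 and Scnn1g was not tested. Neuron markers, of the cell type best known for Asic2, summed to 828 to 869 over 12 measured genes in control pools and 951 to 1028 in tamoxifen pools, a ratio of means of 1.16. Most of this difference lay in Stmn2, with means of 205 and 331, and the other 11 had a ratio of 1.01 with overlapping groups. No neuron marker passed the adjusted threshold, 6 of 12 were higher, and the smallest adjusted p was 0.0685, for Stmn2 (log2 difference 0.70, limma). Schwann cell markers summed to 8140 to 9259 in control and 10917 to 11569 in tamoxifen pools over 7 genes, a ratio of 1.28. Of the 7, 6 were higher. Sox10 went the other way, with 838, 685 and 646 in control and 579, 564 and 648 in tamoxifen pools. Its log2 difference was -0.27 (limma adjusted p 0.430) with overlapping groups. Mag, a myelin gene that the study had listed, rose by 0.57 on the log2 scale (limma adjusted p 0.0431). It was the 1 call among the 7, where 0.282% of all probesets were called higher. The call of Mag was lost in 8 of 14 alternatives, with adjusted p from 0.00972 to 0.214. Mast cell markers had a ratio of 1.33 over 8 genes, adipocyte markers 1.19 over 7, endothelial markers 1.15 over 8 and smooth muscle and pericyte markers 1.14 over 8, each without overlap between groups. These sums and the Schwann cell sum did not overlap either with a gene left out of each, with ratios of 1.15 to 1.33. Left out were Pmp22 (Schwann cell), Cpa3 (mast cell), Cidec (adipocyte), Cdh5 (endothelium) and Rgs5 (smooth muscle and pericyte). Each had the widest gap in mean intensity in its list, but only Cidec also had the widest log2 difference. Besides Sox10, the genes of these lists with lower values were Cldn5 of endothelium (log2 difference -0.09) and Pdgfrb of pericytes (-0.03). Of single probesets 21.0% did not overlap, and no such share was counted for sums.

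Markers of the epithelial compartments differed too. The sum over 7 luminal markers was 30801 to 31910 in control and 29378 to 30767 in tamoxifen pools, a ratio of 0.951. The ratio of hormone-sensing luminal markers, 0.827 over 8 genes, was 0.989 with overlapping groups without Ly6d. This sum hides differences of both signs. By limma 1 gene was higher and 3 lower at an unadjusted p of 0.05 (6.55% and 5.87% of all probesets). None passed the adjusted threshold. Log2 differences were -0.77 for Ly6d, -0.45 for Esr1, -0.32 for Wnt4 and 0.43 for Cited1, each without overlap. The ratio of luminal progenitor markers, 1.13 over 7, turned to 0.924 with overlapping groups without Ltf. Without Epcam the ratio of luminal markers was 0.959 with overlapping groups, and basal markers overlapped, with 0.961 over 9. These genes to leave out, 1 per list, were chosen after their values were seen. Stratified epithelium markers had a ratio of 1.99 over 10 genes. In this list Krt4, a keratin of stratified epithelia that the study had listed, rose by 3.69 on the log2 scale (limma adjusted p 0.00139), while the list median was 0.05 and the other 9 genes had a ratio of 0.968 with overlapping groups. Sums for fibroblast, macrophage, lymphocyte and skeletal muscle markers overlapped between groups, with ratios of 0.944, 1.07, 1.19 and 1.08. Lymphocyte sums were 2636, 3050 and 3794 in control pools 1 to 3 and 2581, 6721 and 1949.5 in tamoxifen pools 1 to 3. The lymphocyte ratio thus rests on tamoxifen pool 2, which also had the highest macrophage sum, 5812. No marker was at 0, since the intensity scale has no true zero.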

How the data were processed

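Gene expression was measured by Affymetrix mouse array in 3 control and 3 tamoxifen pools, grouped by the sample labels, which name an Exon array while the methods name a Gene array. The authors deposited linear intensity values, and MAS5 and mm9 are named in the submitters' processing notes. How background was corrected and arrays were normalized was not given in the sources used here. Log2 intensities, without offset, were fitted with limma 3.58.1 in R 4.3.3 (lmFit and eBayes, group as the only term, two-sided, 4 residual and 2.35 prior degrees of freedom), adjusted by Benjamini-Hochberg over 22369 probesets. Of these, 18286 had 1 symbol, 1276 several and 2807 none. A gene is represented by its probeset with the highest mean, and each channel gene has 1 probeset. The number of arrays limits the precision. The limma fit, but no other step, was tested on simulated data.

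The members and lists were chosen with earlier results of these data known. Named genes are all channel genes, list genes past an adjusted p of 0.05 and the 2 smallest p of each list, the 2 nearest neighbours per side and the most similar genes. Other names were chosen after their values were seen. The comparison of subunit ratios was added after the values were seen. The counts of calls were recomputed, and the differences of single genes where the setting applies to them, with each array left out, with the replicate number as block, with array weights, with the methods' t-test, with a robust variance trend, after median centring or quantile normalization, with 1 probeset for each gene, with 32 added to intensities and without probesets below the median intensity.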

Additional observations from a re-analysis of the deposited data

How the results depend on the processing

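The log2 difference of Asic2 was between 3.28 and 3.49 when 1 array was left out and 2.65 with an offset of 32, which lowers the fold of dim genes by construction. The 7 other channel genes gave 0 calls in all 15 alternatives, but the filter at the median intensity kept only Scnn1a and Scnn1b. Directions reversed without tamoxifen replicate 2 for Asic3 (0.047, range -0.17 to 0.047 with 1 array left out) and Asic4 (0.0015, range -0.15 to 0.0015). The adjusted p of Scnn1g was 0.197 to 0.495 over its alternatives. Of the regulators, 1 passed in the report, 0 with the methods' t-test, 0 with the replicate block, 0 to 0 with 1 array left out, 2 with a variance trend and robust estimation and 2 with the filter at the median intensity (Fxyd1 and Tmprss13 in both), and 4 with array weights (Car2, Fxyd1, Fxyd2 and Tmprss13). Of the Asic2 neighbours, 0 passed in the report, 3 with a variance trend (Ccl2, Ccl7 and Ccl11), 1 with array weights (Ccl7) and 2 with the filter (Ccl2 and Ccl7). The cause was not tested. Krt4 lost its call in 1 of 15 alternatives. Over all probesets 87 passed in the report, 17 with the t-test, 190 with the trend, 519 with weights, 194 of 11184 with the filter, 161 with the offset, 15 with the block and 21 to 31 with 1 array left out. Deviations of arrays with the same replicate number correlated at 0.05, 0.01 and -0.04, and those with unlike numbers at -0.06 to 0.07. These correlations show no pairing by number. Whether pools of the same number shared a batch is not given by the labels and was not tested. Choosing the probeset by the smallest p was not run, since each channel gene has 1 probeset. The low intensity of Asic2 in control pools, near the lower quartile, limits the precision of its fold.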
